A study of Homo sapiens with 6 samples.

Results

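Metallothioneins and the zinc exporter SLC30A1 were examined after silencing of GNE in Capan-1, an established cell line from a human carcinoma of the pancreas. The 8 genes MT1E, MT1F, MT1G, MT1H, MT1M, MT1X, MT2A and SLC30A1 were taken by name, with every probe set that the platform annotation assigns to 1 of them alone. They had 14 of the 54675 probe sets of the array and were 8 of the 19775 genes that a probe set names. Of the 14 probe sets, 11 had a mean log2 value above 4 over the 6 arrays and were tested, and 3 lay near background.

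The study has 3 arrays of cells given a control siRNA, labelled allStar, and 3 arrays of cells given siRNA against GNE (siGNE), the gene for the enzyme that starts sialic acid synthesis. All cells, controls included, were grown in RPMI medium with fetal calf serum and went through 2 transfections 48 h apart, and they were harvested 72 h after the second. The titles number the arrays 1 to 3 in each group, and a control and a siGNE array of 1 number form a pair here. Whether the 3 arrays of 1 siRNA stem from separately grown cultures is not in the labels, and each p-value rests on a spread between arrays that may be technical only. The labels also leave out how many siRNA sequences were used, and 1 cell line is the whole model. RNA was taken from bulk cultures, in which fewer cells of a type and less RNA per cell cannot be told apart.

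Metallothioneins are small proteins rich in cysteine that bind zinc and copper and also take up cadmium. MTF1, a transcription factor that senses zinc, binds short metal response elements in their promoters and switches them on when zinc rises. SLC30A1, also called ZnT1, moves zinc out of the cell through the plasma membrane and is another known target of MTF1. In the pancreas, acinar cells take up and secrete zinc, and metallothioneins are made there when zinc is plentiful. Metallothioneins are also known to respond to oxidative stress and to glucocorticoids.

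The metallothionein members lie in 1 cluster. In the RefSeq gene table of GRCh38.p14, chromosome 16 holds 16 metallothionein genes and pseudogenes in the order MT4, MT3, MT2A, MT1L, MT1E, MT1M, MT1JP, MT1A, MT1DP, MT1CP, MT1B, MT1F, MT1G, MT1H, MT1IP and MT1X. RefSeq lists 19 genes over this span, so some genes of other names lie among them. SLC30A1 lies on chromosome 1. Promoter sequence was at hand for 4 of the 8 genes, and the 250 bases upstream of their start sites are printed because they carry the elements that MTF1 is known to bind. The windows are chr16:56608334-56608583 for MT2A, chr16:56682220-56682469 for MT1X and chr16:56669564-56669813 for MT1H, all on the plus strand, and chr1:211579162-211579411 for SLC30A1 on the minus strand (RefSeq, GRCh38.p14). They are written 5′ to 3′ along the gene, and capitals mark each metal response element core on either strand.
MT2A: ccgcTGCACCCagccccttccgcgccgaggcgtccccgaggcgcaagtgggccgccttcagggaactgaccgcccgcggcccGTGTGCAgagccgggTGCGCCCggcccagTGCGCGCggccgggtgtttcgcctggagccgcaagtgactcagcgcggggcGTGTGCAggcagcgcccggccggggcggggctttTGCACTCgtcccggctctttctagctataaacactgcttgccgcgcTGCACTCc
MT1X: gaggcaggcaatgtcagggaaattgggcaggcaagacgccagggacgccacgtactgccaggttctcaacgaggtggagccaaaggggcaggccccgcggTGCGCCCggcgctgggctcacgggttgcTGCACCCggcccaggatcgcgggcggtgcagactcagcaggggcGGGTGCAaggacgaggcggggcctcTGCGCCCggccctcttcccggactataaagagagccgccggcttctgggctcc
MT1H: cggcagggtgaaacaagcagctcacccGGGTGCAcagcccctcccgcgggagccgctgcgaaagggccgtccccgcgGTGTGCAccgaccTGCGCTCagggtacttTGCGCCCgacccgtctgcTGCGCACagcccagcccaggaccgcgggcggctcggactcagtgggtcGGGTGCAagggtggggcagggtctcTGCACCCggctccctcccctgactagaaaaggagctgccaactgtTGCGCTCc
SLC30A1: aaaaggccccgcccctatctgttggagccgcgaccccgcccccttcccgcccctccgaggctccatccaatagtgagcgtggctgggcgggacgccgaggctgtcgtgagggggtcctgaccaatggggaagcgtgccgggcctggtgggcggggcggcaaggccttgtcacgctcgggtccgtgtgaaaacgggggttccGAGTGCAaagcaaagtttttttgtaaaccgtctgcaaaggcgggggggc

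The core was searched as TGCACNC or TGCGCNC on both strands. MT1H held 8 cores, 5 of them on the forward and 3 on the reverse strand, and 0.017% of 35116 promoter windows of this length held as many. MT2A held 7 cores (0.031% of windows held as many) and MT1X held 4 (0.37%). These promoters are thus dense in the core, with copies that begin 53 or 54 bases upstream of the start site in all 3 metallothionein genes. G and C made up 70.0% to 73.2% of these 3 windows, and the comparison with all windows was not matched for that content. SLC30A1 held 1 core, 49 to 43 bases upstream on the reverse strand, and 24.83% of all windows held at least 1. An antioxidant response element core, TGACNNNGC, was found on either strand 1 time each in MT2A, MT1X and SLC30A1 and was not found in MT1H, against 10.91% of all windows. No antioxidant and metal response core overlapped. A match describes the letters of the window and is not a measured binding site.

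**Figure D1:**
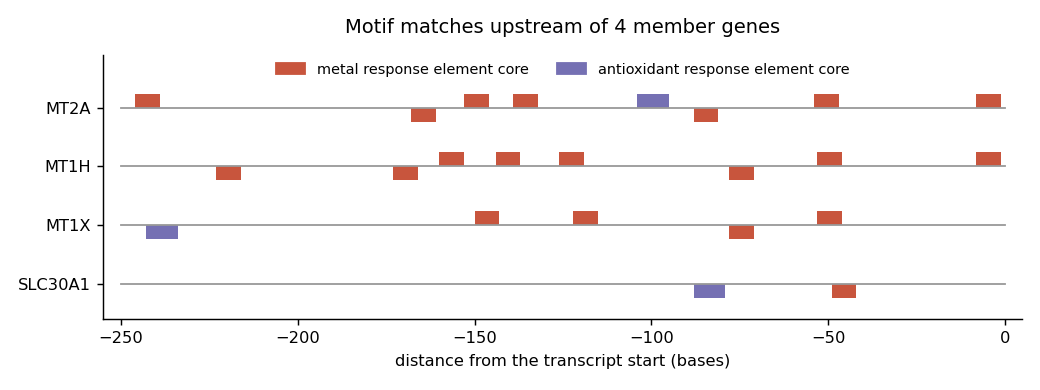
Positions of metal response element cores and antioxidant response element cores in the 250 bases upstream of the start sites of MT2A, MT1X, MT1H and SLC30A1. The x axis is the distance from the start site in bases, and marks above and below each line are matches on the forward and the reverse strand. The metallothionein promoters hold 4 to 8 metal response element cores and SLC30A1 holds 1.

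GNE, the targeted gene, had log2 values of 11.12, 11.47 and 10.86 in controls and 8.39, 9.86 and 9.57 in siGNE arrays 1, 2 and 3. The groups did not overlap, the mean left was 27.2% of control, and the limma adjusted p was 0.131 without the array number as a term and 0.0348 with it (the replicate block). All 9 markers of carcinoma epithelium were above 4, at 5.92 or more. Of 4 acinar, 4 endocrine, 4 leukocyte and 3 endothelial markers measured, 0 were above 4, and of 5 fibroblast markers 1 was, COL1A1.

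The 9 tested metallothionein probe sets had higher means after GNE silencing, by 0.30 to 0.83 on the log2 scale, or 1.23-fold to 1.78-fold. None passed in the main fit, which had no replicate block. With the replicate block, 6 of the 9 tested metallothionein probe sets passed at an adjusted p under 0.05, and all 6 rose. They were 1 probe set each of MT1E, MT1F, MT1H and MT2A and both of MT1X. Over all 22085 tested probe sets, 4.13% rose and 5.35% fell by this rule. Without the block none of the 9 passed, with limma adjusted p from 0.575 to 0.820, and 0.0408% of all tested probe sets did. By an unadjusted limma p under 0.05 none of the 9 passed without the block and 8 passed with it, against 14.6% and 31.6% of all tested probe sets. The calls with the block were lost when no filter on low values was set (limma adjusted p from 0.102 to 0.789), and also when both arrays of any 1 number were left out.

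The siGNE arrays mostly lay above the controls of their own number, but the groups overlapped. In 8 of the 9 probe sets the siGNE array was above its control in all 3 pairs, which 26.5% of all tested probe sets also showed. Control and siGNE values overlapped in 9 of 9, whereas the groups did not overlap in 20.4% of all tested probe sets. The median difference of the 9 was 0.61, beside -0.0091 over all tested probe sets. By pair, the median was 0.73 in pair 1, 0.46 in pair 2 and 0.59 in pair 3. Leaving out siGNE array 1 lowered the median of the 9 differences to 0.20, and leaving out control array 1 raised it to 0.89. It was 0.30 without control array 3 and 0.94 without siGNE array 3. Leaving out 1 array of a pair also unbalances the array numbers between the groups. With both arrays of number 1, 2 or 3 left out, the median was 0.48, 0.66 and 0.62.

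All 9 tested metallothionein probe sets carry the suffix _x_at, by which Affymetrix marks probe sets with probes that can also match other transcripts. The isoforms have near-identical sequences, so a value named for 1 isoform may hold signal of another, and the 9 probe sets are not 9 independent readings. With _x_at probe sets left out, no metallothionein probe set is tested. Levels of different probe sets are therefore not set against each other.

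MT2A encodes the main isoform of the metallothionein-2 class and has the promoter with 7 cores printed above. Its probe set 212185_x_at stood at 13.64, 12.78 and 12.22 in control arrays 1, 2 and 3 and at 14.45, 13.20 and 12.88 in the siGNE arrays. Each siGNE array lay above the control of its number, but siGNE arrays 2 and 3 lay within the range of the controls. The pair differences were 0.82, 0.42 and 0.65, or 1.76-fold, 1.34-fold and 1.57-fold. The group means were 12.88 ± 0.71 and 13.51 ± 0.83 (SD, n = 3 arrays each), a difference of 0.63. Its standard error was 0.52 without the block, at a limma adjusted p of 0.665, and 0.11 with it, at a limma adjusted p of 0.0404.

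**Figure D2:**
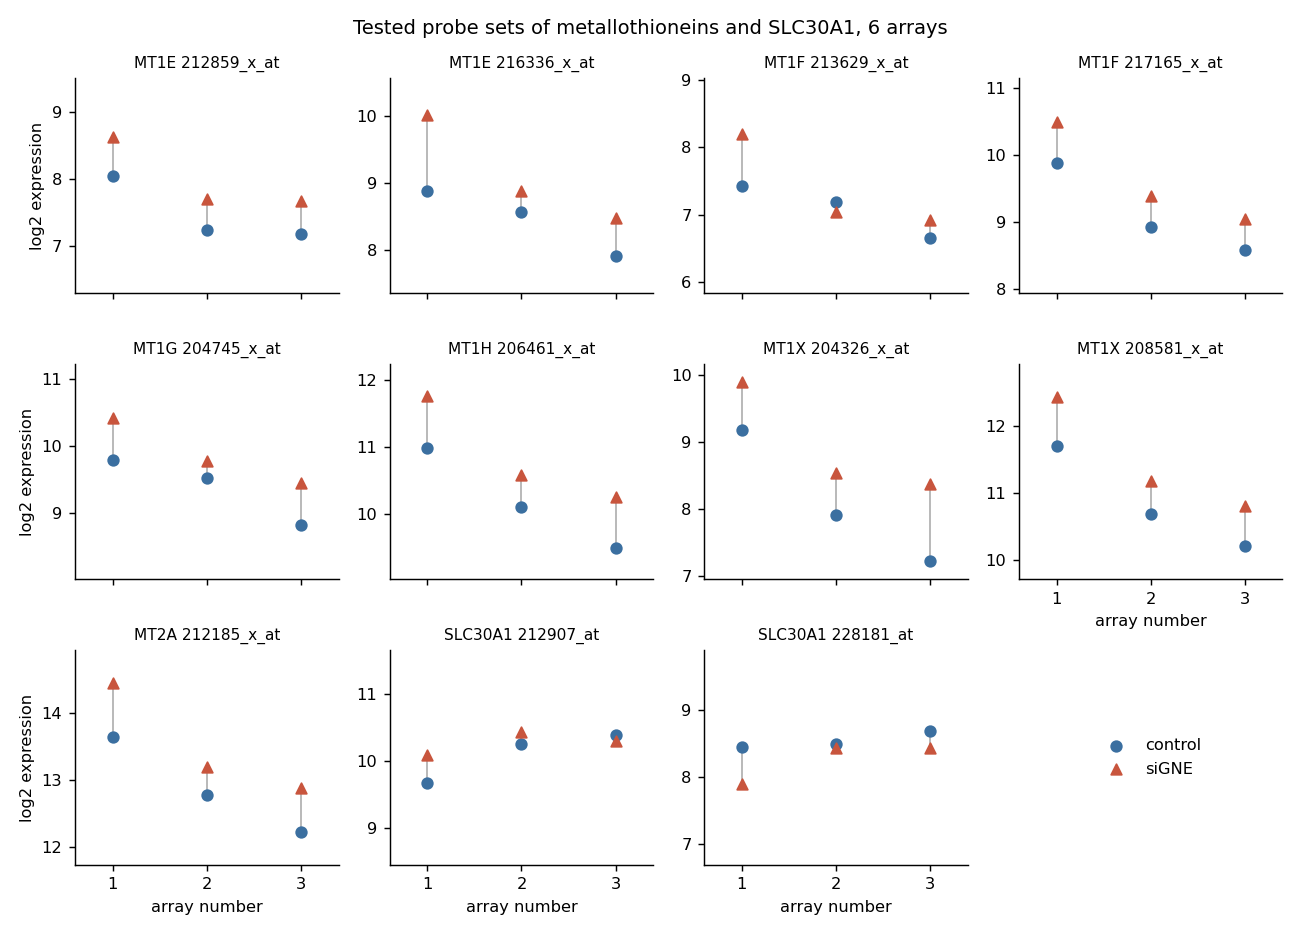
Log2 expression of the tested member probe sets on each of the 6 arrays, with control and siGNE arrays of the same number joined by a vertical line. In metallothioneins the siGNE point mostly lies above the control point of its number, and levels differ between the numbers. The control range is 0.77 to 1.95 and the mean difference 0.30 to 0.83. The tested SLC30A1 probe sets do not share a direction.

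MT1X, a metallothionein-1 isoform whose promoter holds 4 cores, was measured by a pair of probe sets that both rose. Probe set 204326_x_at had 9.17, 7.91 and 7.23 in control arrays 1, 2 and 3 and 9.89, 8.53 and 8.38 in siGNE arrays. The difference of 0.83 was the largest of the 9, and that of pair 3, 1.15, was above those of pairs 1 and 2, at 0.72 and 0.62 (limma adjusted p = 0.622 without and 0.0361 with the block). Probe set 208581_x_at had 11.70, 10.69 and 10.21 in controls and 12.43, 11.18 and 10.80 in siGNE arrays. Its pair differences of 0.73, 0.50 and 0.59 lay closer together, with a mean of 0.61 (limma adjusted p = 0.70 without and 0.0343 with the block). In both probe sets siGNE arrays 2 and 3 fell between the control values.

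MT1H, the metallothionein-1 isoform with 8 cores in its promoter, had 10.99, 10.10 and 9.50 in control arrays and 11.77, 10.58 and 10.26 in siGNE arrays (206461_x_at). The siGNE arrays were 0.78, 0.48 and 0.76 above their controls, a mean of 0.67 or 1.59-fold. Only siGNE array 1 was above every control. The limma adjusted p was 0.640 without and 0.0340 with the block, the lowest of the 9 with it.

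MT1E was measured by a pair of probe sets, of which 1 passed with the block. Probe set 212859_x_at had 8.04, 7.23 and 7.17 in controls and 8.62, 7.70 and 7.66 in siGNE arrays, and its pair differences of 0.58, 0.47 and 0.49 were the most even of the 9 (mean 0.51, limma adjusted p = 0.591 without and 0.0374 with the block). Probe set 216336_x_at had 8.88, 8.57 and 7.90 in controls and 10.005, 8.87 and 8.48 in siGNE arrays. Its difference of 0.67 was larger but uneven, at 1.13 in pair 1 against 0.30 in pair 2, and it did not pass (limma adjusted p = 0.575 without and 0.0774 with the block).

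MT1F, another isoform of the metallothionein-1 class, also differed between its probe sets. Probe set 217165_x_at had 9.88, 8.93 and 8.59 in controls and 10.50, 9.39 and 9.05 in siGNE arrays, with pair differences of 0.63, 0.46 and 0.46. It passed with the block (limma adjusted p = 0.717 without and 0.0399 with it). Probe set 213629_x_at had 7.42, 7.19 and 6.65 in controls and 8.21, 7.03 and 6.91 in siGNE arrays, and it was the exception to the common direction: siGNE was 0.16 below control in pair 2. Its mean difference of 0.30 did not pass (limma adjusted p = 0.820 without and 0.351 with the block). Without siGNE array 1 it was -0.12, and without both arrays of number 1 it was 0.052.

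MT1G, likewise of the metallothionein-1 class, had 9.79, 9.53 and 8.82 in controls and 10.42, 9.78 and 9.45 in siGNE arrays by 204745_x_at. The pair differences were 0.63, 0.25 and 0.63, and the mean of 0.50 did not pass (limma adjusted p = 0.585 without and 0.0610 with the block). The only MT1G probe set without the _x_at mark, 210472_at, lay between 2.40 and 2.53 on all 6 arrays, near background, and was not tested. MT1M was measured by 217546_at alone, at 2.35 to 2.42, so it was not measured above background in either group.

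**Figure D3:**
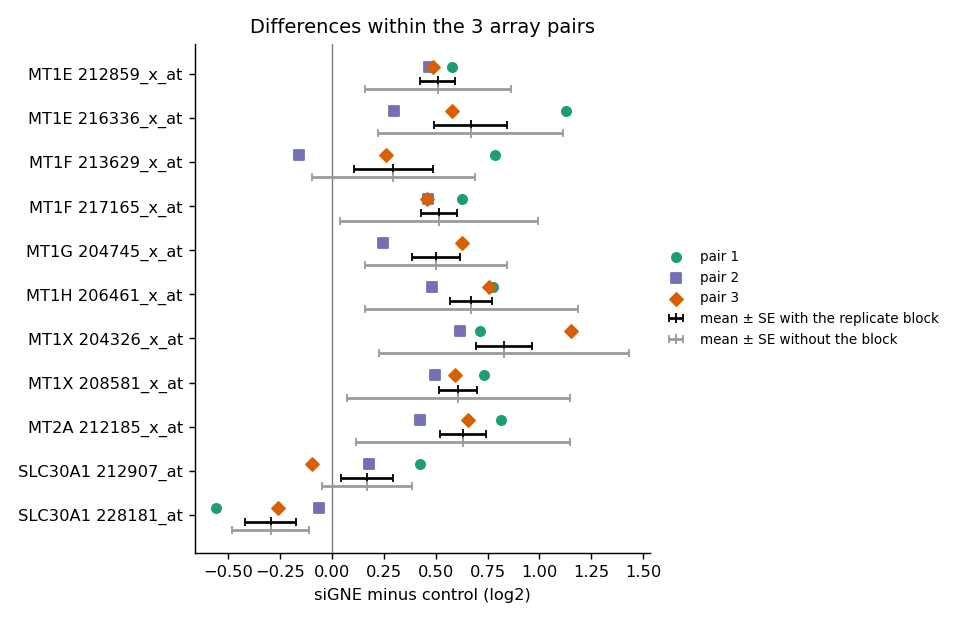
Difference siGNE minus control (log2) for each tested probe set of the 8 genes, with a point for each pair of arrays and a mark for the mean. The metallothionein points lie above 0 in every pair except pair 2 of MT1F probe set 213629_x_at, and pair 1 is the largest in 7 of the 9 metallothionein probe sets.

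In each of the 9 metallothionein probe sets the range over the controls was wider than the mean difference between the siRNAs. How often this holds over all tested probe sets was not counted, so it is not shown to be particular to metallothioneins. The range over the 3 controls was 0.77 to 1.95 on the log2 scale, with a median of 1.29, while the median range over all tested probe sets was 0.40. MT1X 204326_x_at had the widest range, 1.95, and 1.73% of all tested probe sets had a control range at least as wide. MT1F 213629_x_at had the narrowest, 0.77, reached by 19.1%.

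In all 9 metallothionein probe sets array 1 was the highest and array 3 the lowest, in the controls and again in the siGNE arrays. Control values lay in that order in 29.3% of all tested probe sets. The share with that order in the siGNE arrays, or in both groups, was not counted. The array number held 65.1% to 83.4% of the sum of squares over the 6 arrays (median 75.9%), and the siRNA held 8.96% to 27.6% (median 22.1%). Over all tested probe sets the medians were 58.0% and 19.5%. Between 22.9% and 42.9% of all tested probe sets had a number share at least as high as that of a given metallothionein probe set, so such a share was common on these arrays. The labels do not state what differed between the numbers, and its part in the metallothionein levels was not tested.

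**Figure D4:**
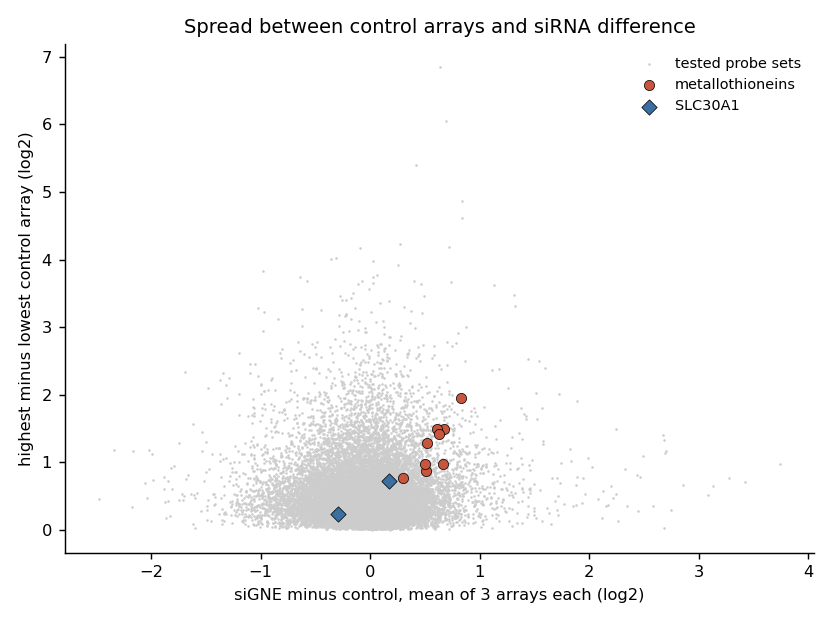
Range of the log2 values over the 3 control arrays (y axis) against the difference siGNE minus control (x axis) for each tested probe set of the 8 genes. Grey points are all tested probe sets of the array. All 9 metallothionein probe sets have a control range above the median of all tested probe sets, 0.40. Their ranges are 0.77 to 1.95, beside differences of 0.30 to 0.83.

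SLC30A1, the zinc exporter, did not pass in either tested probe set with or without the block, and these probe sets had opposite signs. Probe set 212907_at had 9.68, 10.26 and 10.40 in control arrays 1, 2 and 3 and 10.10, 10.44 and 10.30 in siGNE arrays. Its pair differences were 0.42, 0.18 and -0.094, and its groups overlapped. The mean difference was 0.17 with a 95% interval of -0.36 to 0.70 (limma adjusted p = 0.812), and with the block the interval was -0.16 to 0.50 (limma adjusted p = 0.410). Control array 1 was the lowest of the 6, the reverse of its place in the metallothioneins, and without it the difference was -0.047. Without both arrays of number 1 the difference was 0.042.

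Probe set 228181_at of SLC30A1 had 8.45, 8.49 and 8.69 in controls and 7.89, 8.43 and 8.42 in siGNE arrays. Every siGNE value lay below every control, though siGNE array 2 was only 0.065 below its own control. Groups that do not overlap were found in 1 of the 11 tested probe sets and in 20.4% of all tested probe sets. The mean difference was -0.29 with a 95% interval of -0.74 to 0.15 (limma adjusted p = 0.547), and with the block -0.61 to 0.02 (limma adjusted p = 0.180). The other probe set, 242716_at, stayed between 1.96 and 2.00 on all arrays and was not tested. No SLC30A1 probe set carries the _x_at mark, and which transcripts each one reads was not analysed here.

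Other metallothionein genes added 2 tested probe sets. MT1HL1, an MT1H-like gene on chromosome 1, had 11.23, 10.27 and 9.59 in controls and 11.81, 10.46 and 10.31 in siGNE arrays by 211456_x_at. Within each group it had the same order of arrays as the tested cluster members, and its difference of 0.50 did not pass (limma adjusted p = 0.0786 with the block). MT3, the isoform known mainly from brain, lay at 4.12 to 4.22 in controls, barely above the limit of 4, with a difference of 0.02. MT4 lay near background and was not tested.

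Zinc transporters were summarised with 1 probe set a gene. Over the 10733 genes tested this way, 4.11% rose and 5.79% fell with the block, 0.0280% passed without it, and the median difference was -0.02. Of 11 ZIP importers measured, which carry zinc into the cytosol, 0 rose and 2 fell with the block, and their median was -0.08. SLC39A10, an importer at the plasma membrane, had 11.90, 12.05 and 12.39 in controls and 11.11, 11.48 and 11.81 in siGNE arrays. All siGNE values of SLC39A10 were below all controls, and its difference was -0.65 (limma adjusted p = 0.273 without and 0.0323 with the block). SLC39A11 had 9.47, 9.77 and 10.38 in controls and 8.71, 9.09 and 9.78 in siGNE arrays, a difference of -0.68 whose groups overlapped (limma adjusted p = 0.0281 with the block).

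In SLC39A10 and SLC39A11 array 1 was the lowest of each group and array 3 the highest, opposite to the metallothioneins. SLC39A4, the importer known from intestinal zinc uptake, differed by -0.29, and SLC39A14, an importer of zinc and iron, by 0.30, and neither passed (limma adjusted p = 0.0914 and 0.0911 with the block). None of the 6 other ZnT transporters measured passed, and their median was 0.01. SLC30A4 was at -0.34, SLC30A6 at -0.29, SLC30A5 at 0.07 and SLC30A3, near background, at 0.41.

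MTF1, the zinc sensor of the metallothionein promoters, had 7.74, 7.58 and 7.18 in controls and 7.88, 7.89 and 7.52 in siGNE arrays (227150_at). The difference of 0.26 did not pass (limma adjusted p = 0.132 with the block), nor did those of its other probe sets, 0.47 by 205322_s_at and 0.13 by 205323_s_at. Of 6 regulators of metallothionein promoters measured, 0 passed with the block, and their median was 0.02. NFE2L2, the activator that binds antioxidant response elements, differed by 0.13, SP1 by -0.13 and NR3C1, the glucocorticoid receptor, by -0.16. These are transcript levels and carry no measure of the proteins' activity.

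Copper handling genes had 1 of 10 measured that fell with the block and 0 that rose, with a median of -0.01. The shares over all tested genes were 5.79% falling and 4.11% rising. The gene that fell was ATP7B, a copper exporting ATPase, with 7.00, 7.11 and 7.30 in controls and 5.34, 6.45 and 5.96 in siGNE arrays. Its groups did not overlap, and the difference was -1.22 (limma adjusted p = 0.147 without and 0.0393 with the block). SLC31A1, the main copper importer, differed by 0.30, SLC31A2 by 0.41 and the copper and zinc enzyme SOD1 by -0.08, and none of these passed.

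Genes other than metallothioneins that are known to respond to heavy metals were mostly called higher with the block. The list had 10 genes, of which 8 had a probe set of their own and were measured. Of 8 measured, 7 rose with the block and 0 passed without it, and the median was 0.97. Among all tested genes, 4.11% rose with the block and 0.0280% passed without it. HMOX1, which breaks down haem, had 6.41, 5.48 and 6.24 in controls and 8.65, 7.68 and 7.87 in siGNE arrays, a difference of 2.03 (limma adjusted p = 0.0195 with the block). SLC7A11, the cystine importer, differed by 1.88, GCLC, a subunit of the enzyme that begins glutathione synthesis, by 1.44 and SRXN1, which repairs peroxiredoxins, by 0.98. GCLM at 0.97, TXNRD1 at 0.84 and DNAJB1 at 0.56 also passed, and HSPA6, near background, was at 0.01. The list was drawn up with earlier results of these arrays known, so its count is not independent evidence of a direction. Metal in the cells was not measured, and a response to metal was not tested.

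Of 7 glucocorticoid response genes measured, 1 rose and 1 fell with the block, 5 did not pass, and the median was -0.17. Over all tested genes, 4.11% rose and 5.79% fell with the block. TSC22D3, a glucocorticoid-induced leucine zipper gene, had 8.07, 8.68 and 8.74 in controls and 9.57, 9.41 and 9.43 in siGNE arrays, a difference of 0.97 (limma adjusted p = 0.0455 with the block). SGK1, a kinase induced by glucocorticoids, had 8.17, 7.88 and 8.05 in controls and 7.32, 6.83 and 6.72 in siGNE arrays, a difference of -1.08 (limma adjusted p = 0.0256 with the block). FKBP5, a co-chaperone of the glucocorticoid receptor, was at -0.73 and ERRFI1 at 0.18, and neither passed in the probe set used. Another FKBP5 probe set, 224856_at, was at -1.12 and passed with the block (limma adjusted p = 0.0344).

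**Figure D5:**
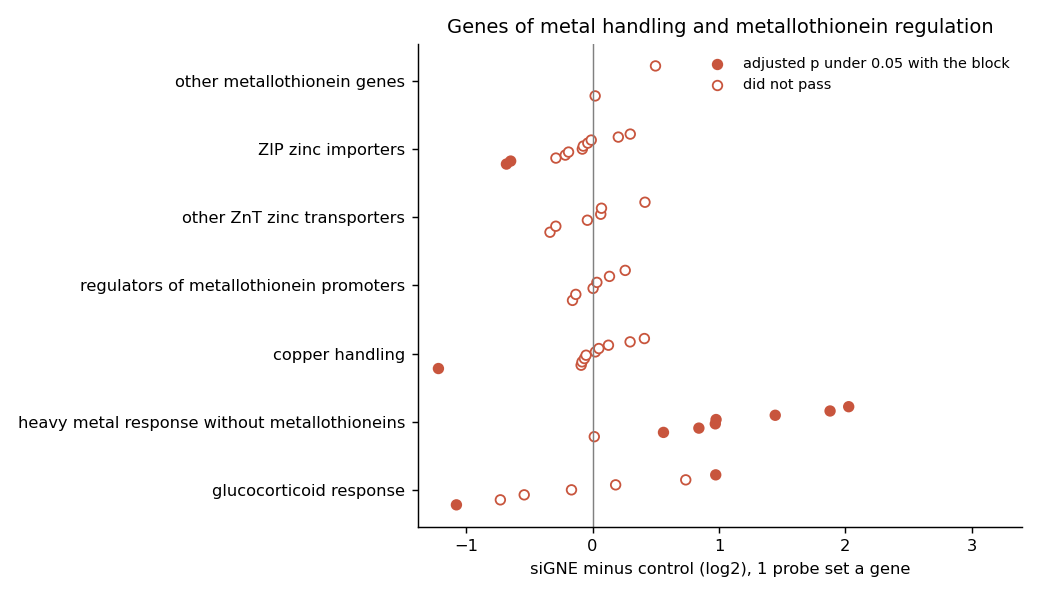
Difference siGNE minus control (log2) for each tested gene of the lists on metal handling and metallothionein regulation, with 1 probe set a gene. Filled points passed with the replicate block. Those to the right are 7 of 8 heavy metal response genes and the glucocorticoid response gene TSC22D3. Those to the left are SLC39A10, SLC39A11, ATP7B and SGK1.

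The genes whose profile over the 6 arrays was most like that of MT2A were FDX1 (Pearson r = 0.995), SP100 (0.994), LACTB (0.990) and MT1HL1 (0.989), out of 5962 genes compared. MT1HL1, like MT2A, was read by an _x_at probe set, so their likeness may come in part from shared signal. FDX1, a mitochondrial ferredoxin, had 11.97, 11.77 and 11.56 in controls and 12.26, 11.88 and 11.74 in siGNE arrays. Its spread was narrower than that of MT2A, with the same order within each group. For SLC30A1 212907_at the most like were MAN1A1 (0.974), CD24 (0.972), CRIP2 (0.968) and TRAPPC6A (0.963), all lowest on control array 1. These correlations describe 6 arrays that share the array number and the siRNA, and the highest of so many were chosen.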

How the data were processed

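RNA of 3 control and 3 siGNE samples was hybridised to 1 Affymetrix array each. The authors deposited log2 expression values, made with GCRMA per the submitters' processing notes. The GCRMA version is not given in the sources used here. GCRMA models background, so values near the array medians of 2.96 to 3.02 are close to background and differences there are understated. The values were used as deposited, and the number of arrays limits the precision.

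Symbols came from the platform annotation through gene identifiers in the RefSeq table (GRCh38.p14), which held 41043 of 41097 probe sets with 1 symbol. Probe sets with several symbols (1801) or none (11777) named no gene. The test was limma 3.58.1 (R 4.3.3) on siGNE minus control, with Benjamini-Hochberg adjustment over 22085 probe sets with a mean above 4, without 62 control probe sets. The main fit had no replicate term (4 residual degrees of freedom). The fit with the title number as replicate block had 2. The numbers were taken to pair the arrays because deviations from the group means correlated at 0.58, 0.71 and 0.83 for the same number and at -0.64 to 0.17 for different numbers. The fits were tested on simulated data.

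Other genes were read from their probe set with the highest mean, without _x_at where the gene had another. All members are named, up to 4 genes of each list by the smallest unadjusted p without the block, and the 4 genes most like MT2A and SLC30A1 in profile (mean above 6, SD at least 0.2). DNAJB1, GCLM, TXNRD1 and HSPA6 are named beyond this rule, after their values were seen. Members and lists were chosen with earlier results of these data known. Alternatives were the block, no filter, a mean above 6, a floor, array weights, trended and robust variances, median centring, quantile normalization, an adjusted p under 0.1, _x_at left out and each array left out.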

Additional observations from a re-analysis of the deposited data

How the results depend on the processing

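Without the block no member probe set rose or fell. The replicate block gave 6 rising members, 8 rising and 4 falling related genes, and called GNE lower at -1.88. Without the block, rising related genes numbered 1 with a mean above 6, 1 with trended and robust variances, 3 with array weights and 4 at an adjusted p under 0.1. Combinations with the block were added after seeing the data: rising members numbered 8 with trended and robust variances, 6 with quantile normalization, 6 with median centring, 8 with a mean above 6 and 8 at an adjusted p under 0.1. With the block and no filter, none of the 9 metallothionein probe sets passed (limma adjusted p from 0.102 to 0.789, 7 with an unadjusted p under 0.05), and no probe set passed at all, with 7167 at an unadjusted p under 0.05. With _x_at probe sets left out, 0 members rose. Only SLC30A1 probe sets were then tested, so this setting cannot show a rise or its absence in metallothioneins.

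With 1 array left out, 2 differences changed sign: SLC30A1 212907_at ran from -0.047 (without control array 1) to 0.31 (without control array 3), and MT1F 213629_x_at from -0.12 (without siGNE array 1) to 0.53 (without siGNE array 3). Neither changed sign when both arrays of number 1 were left out, at 0.042 for SLC30A1 212907_at and 0.052 for MT1F 213629_x_at. With both arrays of number 1, 2 or 3 left out and the block kept, the median metallothionein difference was 0.48, 0.66 and 0.62. No probe set then passed in limma, with 5529, 5022 and 5037 at an unadjusted p under 0.05, among them 8, 9 and 6 of the 9. Of the other member values, 220 kept their direction and their side of the threshold and 42 passed only under the alternative. All 42 were from settings with the replicate block, alone or combined, and none came from a setting without it.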
